A study of Mus musculus with 14 samples.

Results

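Hematopoietic stem and progenitor cells (HSPC), the rare marrow cells from which all blood cells descend, were compared between 2 phases of the cell cycle. The authors had assigned every cell to G1, S or G2M, where G1 is the phase before DNA replication and G2M joins the gap after it with mitosis. Members were the cells called G2M, 2721 of 14842, and they were set against the 11074 cells called G1. The UMIs (unique molecular identifiers, 1 per captured RNA molecule) of each phase were summed per mouse and compared within the mouse. The remaining 1047 cells were called S and served only for phase shares and as a reference.

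The cells came from 4 mice, 1 droplet 3' library per mouse, in a study of marrow in mice with a localized breast tumour. Per the genotype labels, 2 mice were wild type (WT) and 2 were PyMT, a transgenic line that expresses the middle T antigen of polyoma virus and develops mammary tumours. The sample titles carry a PyMT prefix for all 4 mice, so the genotype label was used throughout. The promoter of the transgene, the strain, sex and age of the mice, the tumour stage and the sort gates are given in none of the sources used here. The labels name 2 versions of the droplet chemistry without assigning them to samples.

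Cells multiply by copying their DNA in S and then dividing in M, and transcripts for mitosis are made late in that cycle. Cyclin B and its kinase Cdk1 drive entry into mitosis, Plk1 and the Aurora kinases build and control the spindle, and the anaphase-promoting complex (APC/C) then marks cyclins for destruction. In marrow the most primitive stem cells divide rarely, whereas the progenitors below them cycle often. Many late cell cycle genes are controlled through a short promoter element, the cell cycle genes homology region, bound by the DREAM and MuvB complexes, often beside CCAAT boxes bound by NF-Y.

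G2M cells held 435 to 976 cells and 4669411 to 7224696 UMIs per mouse, and G1 cells 1636 to 4252 cells and 10332943 to 18273615 UMIs. The median G2M cell had 1.76 to 1.90 times the UMIs of the median G1 cell of its mouse. PyMT mouse 2 was shallower than the others, with medians of 3592 UMIs in G1 and 6820 in G2M cells, against 5629 to 5962 and 10450 to 10471 in the other mice. In the 4 libraries 93 barcodes occurred more than once, covering 187 cells, 46 of them G2M. The stem cell gene Kit was read at 74.1 to 151 CPM (UMIs of the gene scaled to a fixed library total) in the G1 sums and Cd34 at 637 to 729 CPM. The neutrophil markers S100a8 and S100a9 were low in the G1 sums, at 1.69 to 5.27 and 0.320 to 1.83 CPM. These 2 genes do not speak for markers of other mature cell types. The table used here holds 11992 genes.

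The 4 chosen mitotic markers were detected in a larger share of G2M than of G1 cells. These were Ube2c, the E2 enzyme of the APC/C, the kinase Plk1, cyclin B1 (Ccnb1) and the kinetochore protein Cenpf. All 4 were detected in 66.9% of G2M cells and at least 2 in 95.6%, while 0.992% had none. Among G1 cells 64.6% had none and 10.4% at least 2. With every cell thinned to 2000 UMIs, Ube2c was detected in 68.9% of G2M, 18.5% of S and 5.14% of G1 cells (92.3%, 55.0% and 14.0% before thinning, at median depths of 9255, 8923 and 4884 UMIs). In a cluster of primitive, largely non-dividing cells described below, the thinned share among G1 cells was 4.85% at a median depth of 3194 UMIs (7.22% before thinning), so for Ube2c the G1 share lay near that background. At 2000 UMIs Plk1 was found in 37.7% of G2M and 1.82% of G1 cells, Ccnb1 in 56.3% and 6.27%, and Cenpf in 44.7% and 4.06%. In the G1 cells of that cluster these 3 genes were found in 1.99%, 3.73% and 2.11%.

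The promoters of these 4 genes were searched for elements that recur among genes high in G2M cells. All 4 held CCAAT, and all but that of Ccnb1 held TTTGAA. Each sequence is from RefSeq (GRCm38.p6), runs from 250 bases before to 50 bases past the transcription start on the strand of the gene, and has in capitals every TTTGAA (the cell cycle genes homology region) and CCAAT (the NF-Y box), or their reverse complements TTCAAA and ATTGG.
Ube2c, chr2:164769679-164769978, plus strand: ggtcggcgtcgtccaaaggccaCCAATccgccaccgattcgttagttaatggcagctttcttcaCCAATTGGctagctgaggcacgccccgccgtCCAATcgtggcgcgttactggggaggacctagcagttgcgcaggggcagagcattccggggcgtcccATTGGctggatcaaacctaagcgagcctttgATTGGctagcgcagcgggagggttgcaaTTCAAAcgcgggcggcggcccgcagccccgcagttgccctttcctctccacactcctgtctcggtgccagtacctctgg
Plk1, chr7:122159185-122159484, plus strand: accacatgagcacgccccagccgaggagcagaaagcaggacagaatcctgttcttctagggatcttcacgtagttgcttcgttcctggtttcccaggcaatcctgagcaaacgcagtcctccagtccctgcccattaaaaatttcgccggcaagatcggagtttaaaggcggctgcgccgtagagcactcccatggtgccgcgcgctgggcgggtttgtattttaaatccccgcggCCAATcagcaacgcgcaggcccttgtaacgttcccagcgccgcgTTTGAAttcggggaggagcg
Cenpf, chr1:189688037-189688336, minus strand: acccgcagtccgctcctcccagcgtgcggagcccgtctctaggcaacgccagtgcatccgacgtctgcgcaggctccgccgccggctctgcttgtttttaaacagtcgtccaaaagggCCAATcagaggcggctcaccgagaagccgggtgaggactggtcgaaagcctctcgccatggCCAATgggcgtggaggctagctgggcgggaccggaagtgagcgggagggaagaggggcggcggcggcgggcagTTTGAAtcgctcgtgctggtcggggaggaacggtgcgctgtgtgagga
Ccnb1, chr13:100786437-100786736, minus strand: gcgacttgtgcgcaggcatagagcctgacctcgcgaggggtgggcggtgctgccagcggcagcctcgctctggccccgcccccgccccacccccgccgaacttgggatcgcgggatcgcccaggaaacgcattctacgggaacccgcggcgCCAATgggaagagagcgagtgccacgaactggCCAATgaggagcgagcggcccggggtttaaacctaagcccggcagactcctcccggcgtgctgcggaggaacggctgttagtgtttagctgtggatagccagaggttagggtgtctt
In Ube2c the TTTGAA match begins 29 bases before the start and is preceded by 6 CCAAT matches, of which a pair on opposite strands overlap. In Cenpf it begins 2 bases past the start and in Plk1 30 bases past it. The Ccnb1 window holds 2 CCAAT matches, 99 and 67 bases before the start, and no TTTGAA match.

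By the authors' calls the G2M share was slightly lower in both PyMT mice than in both WT mice. G2M cells made up 19.3% and 19.7% of the cells of the WT mice and 18.0% and 17.4% of those of the PyMT mice. The WT mean was 19.5% ± 0.260 and the PyMT mean 17.7% ± 0.434 (SD, n = 2 each), a difference of −1.79 points. The 2 groups did not overlap, but with 2 mice a group the exact two-sided permutation test cannot give a p below 0.333, which is the value it gave (0.667 adjusted over the 3 phases). S cells made up 6.90% and 6.29% in WT and 8.11% and 6.78% in PyMT mice (exact permutation p = 0.667), and G1 cells 73.8% and 74.0% against 73.9% and 75.8% (exact permutation p = 0.667); in both phases the groups overlapped. The 95% Clopper-Pearson interval of a mouse's G2M share, which covers counting error only, spanned 18.0% to 20.7% in WT mouse 1 and 16.4% to 18.4% in PyMT mouse 2.

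The G2M difference depended on how phases were called. Called again from S and G2M gene lists on all UMIs, the G2M share was 24.3% ± 1.20 in WT and 23.8% ± 2.21 in PyMT mice (SD, n = 2 each, difference −0.471 points). On cells thinned to 2000 UMIs it was 27.6% ± 1.08 and 27.8% ± 3.58, a difference of 0.139 points. Of the authors' G2M cells, 96.8% were called G2M again on thinned cells. Of their G1 cells 50.3% moved to S and 7.61% to G2M, so most of the cells that changed phase crossed between G1 and S. Cyclone, which scores pairs of genes, gave the authors' phase to 97.2% of cells and was added after seeing the data. By cyclone the G2M share was 20.8% ± 0.540 in WT and 19.4% ± 0.432 in PyMT mice on all UMIs. On thinned cells it was 22.2% ± 0.433 and 20.2% ± 0.0842, and in both cases the groups did not overlap (exact permutation p = 0.333 each, the smallest possible). The lower G2M share of the PyMT mice was thus present by pair-based calls and not by list-based calls.

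**Figure D1:**
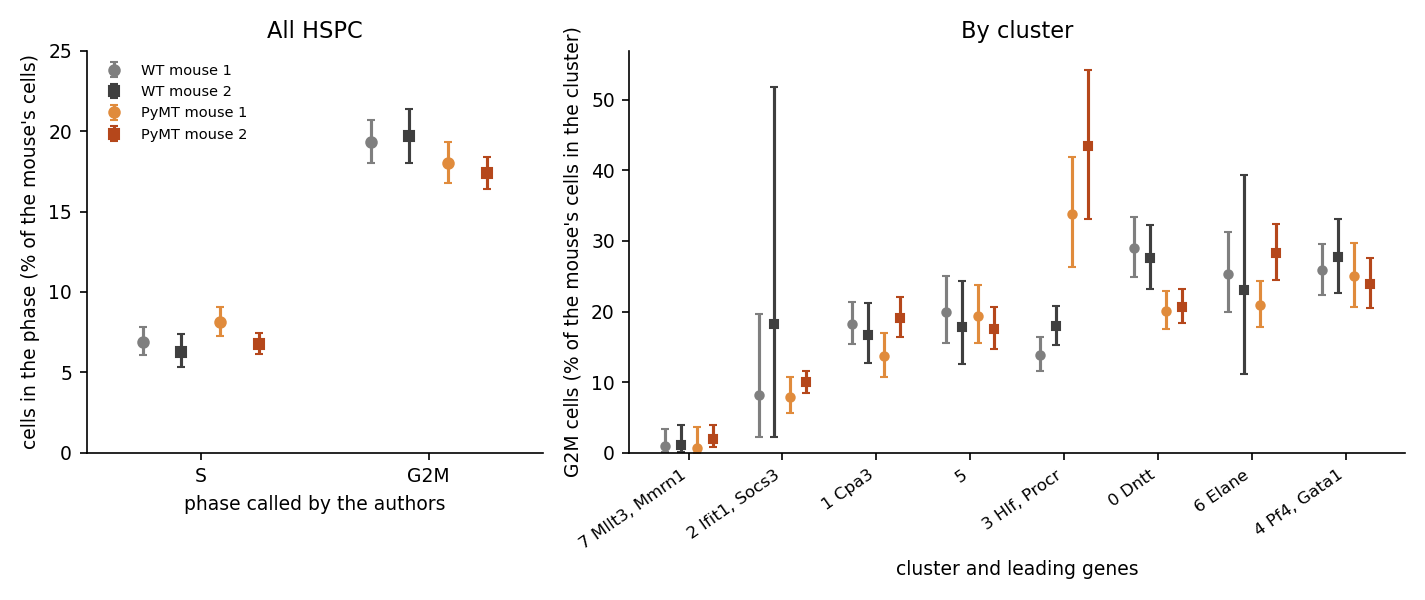
Share of cells in S and G2M by the authors' calls, in percent of all cells of a mouse (left), and G2M share within the larger cell clusters, in percent of the mouse's cells in the cluster (right, clusters by number and leading genes); points are mice and bars are 95% Clopper-Pearson intervals for counting error. The WT mice lie at 19.3% and 19.7% in G2M and the PyMT mice at 18.0% and 17.4%, and the cluster led by Mllt3 lies near 0 in all 4 mice.

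The G2M share ranged from 1.33% to 25.4% over cell clusters, while over all cells the difference between genotypes was −1.79 points. Within 1 cluster the genotypes differed by 22.7 points. The 14842 cells were clustered without cell cycle genes. In a cluster of 905 cells led by genes such as Mllt3, Meg3, Socs2 and Cdkn1c, called HSC-like from the HSC identity list, 1.33% of cells were G2M. This share was 1.03% ± 0.104 in WT and 1.297% ± 0.885 in PyMT mice (SD, n = 2 each). In a cluster led by the megakaryocyte and mast cell genes Pf4, Gp1bb, Gata1 and Prss34 it was 25.4%, in one led by Elane, Ly6c2 and Ms4a3 24.4%, and in one led by Dntt, Il7r and Blnk 22.7%. In this last, lymphoid-primed-like cluster the WT mice had 28.3% ± 1.03 and the PyMT mice 20.4% ± 0.402 G2M cells, a difference of −7.89 points with no overlap (exact permutation p = 0.333, the smallest possible). In the Pf4 cluster the difference was −2.30 points, also without overlap. A cluster led by Hlf, Procr and Mecom went the other way, with 15.9% ± 2.88 in WT and 38.6% ± 6.87 in PyMT mice. That cluster held 845 and 748 cells of the WT mice and 154 and 92 of the PyMT mice, so it was itself divided unevenly by genotype. Its mirror image was a cluster led by Jchain, Ifit1 and Socs3, which held 49 and 11 cells of the WT mice and 458 and 1499 of the PyMT mice, with a G2M share of 8.16%, 18.2%, 7.86% and 10.0%. With both clusters pooled the G2M share was 13.5% and 17.9% in the WT mice and 14.4% and 11.9% in the PyMT mice, and the groups overlapped. The part that this uneven makeup had in the G2M share over all cells was not tested.

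Between G2M and G1 cells of the same mouse, 5821 of 10781 genes tested passed the threshold (54.0%; edgeR quasi-likelihood test, mouse as block, adjusted p under 0.05). Of these, 2970 were higher (27.5%) and 2851 lower (26.4%) in G2M cells. Most changes were small: 264 genes (2.45%) were higher by at least 2-fold and 372 (3.45%) lower, while 109 (1.01%) were higher by at least 4-fold and 38 (0.352%) lower. The median change over all genes was −0.000912 on the log2 scale. Because phases were called from the RNA of these same cells, values of cell cycle genes in this contrast describe the calls and support nothing beyond them. Which genes the authors' caller used is not given here, so the same caution holds for other genes.

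The 4 markers were low in G1 cells and high in G2M cells of every mouse. Ube2c stood at 30.3 and 27.6 CPM in the G1 cells of the WT mice and 35.9 and 25.4 CPM in those of the PyMT mice, and at 808, 865, 745 and 650 CPM in the G2M cells of the same mice. The difference was 4.68 ± 0.11 on the log2 scale (SE of the edgeR fit, n = 4 mice), and no G2M value came near a G1 value. Plk1 went from 10.8, 9.04, 15.2 and 11.3 to 254, 242, 233 and 271 CPM (4.42 ± 0.15). Ccnb1 went from 34.6, 30.9, 48.6 and 39.9 to 469, 522, 446 and 532 CPM (3.67 ± 0.17). Cenpf went from 25.1, 20.04, 30.1 and 23.02 to 327, 374, 277 and 288 CPM (3.67 ± 0.18). In these lists of 4, as in those below, values stand in the order WT mice 1 and 2, then PyMT mice 1 and 2.

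**Figure D2:**
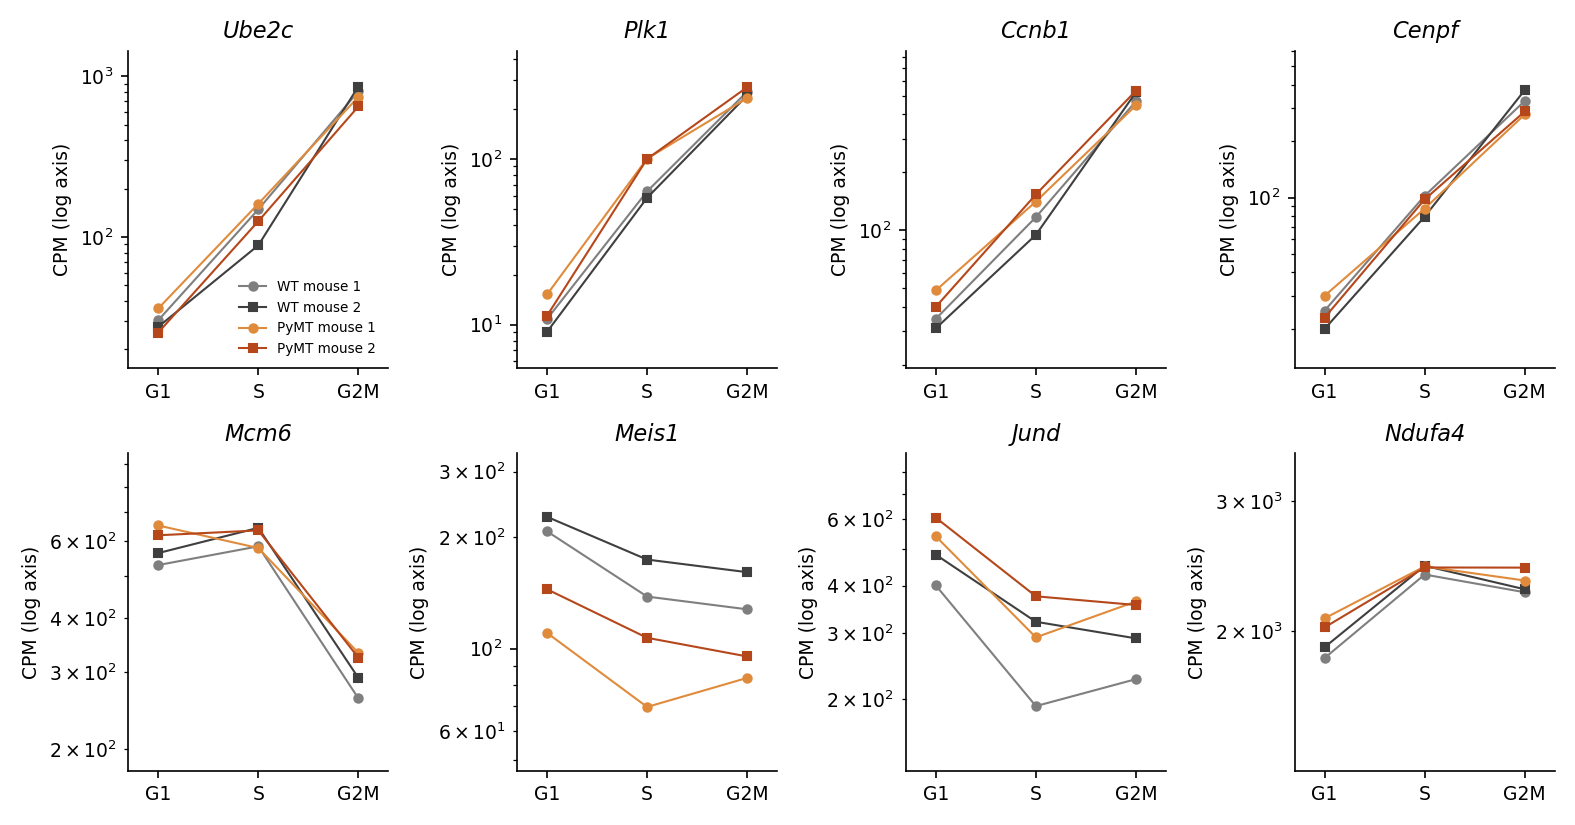
Expression in the G1, S and G2M sums of each mouse, in CPM on log axes that differ between panels, for the 4 markers (top) and for Mcm6, Meis1, Jund and Ndufa4 (bottom); each line joins the values of 1 mouse. Ube2c lies between 25.4 and 35.9 CPM in G1 and between 650 and 865 CPM in G2M cells, with S between them.

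Drivers of entry into mitosis were mostly higher in G2M cells. Of 16 mitotic cyclins, Cdk1 partners and regulators, 13 were higher and 1, the early-acting phosphatase Cdc25a, lower, with a median difference of 1.81. The phosphatases Cdc25b and Cdc25c, which activate Cdk1, were higher by 3.02 ± 0.08 and 3.97 on the log2 scale. Cyclin B2 (Ccnb2) was higher by 2.99 ± 0.21 and cyclin A2 (Ccna2), which also acts in S phase, by 2.63 ± 0.20. The opposing kinase Wee1 went from 23.8, 28.2, 20.4 and 20.02 to 27.5, 32.4, 24.7 and 24.5 CPM, a small rise of 0.26 ± 0.07 (adjusted p = 0.00208, edgeR). The phosphatase regulators Arpp19 (0.02 ± 0.03, adjusted p = 0.562, edgeR) and Ensa did not pass.

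Of 20 mitotic kinases and chromosomal passengers 17 were higher and 1, Nek6, lower, with a median of 2.34. Aurora A (Aurka), which matures the spindle poles, rose from 16.1, 12.9, 25.6 and 21.2 to 259, 242, 259 and 294 CPM (3.80 ± 0.17). Aurora B (Aurkb), which corrects the attachment of chromosomes, was higher by 2.32 ± 0.18, and its partners survivin (Birc5) and borealin (Cdca8) by 2.56 ± 0.17 and 2.67 ± 0.17. Of 36 mitotic kinesins and spindle proteins 33 were higher and none of the list lower, with the highest median of the lists, 2.64. Among these, Hmmr and Nusap1, which organize spindle microtubules, were higher by 4.15 and 4.04, whereas the kinesins Kif2a (0.05) and Kif3a (0.10) did not pass. Of 11 tubulins tested 9 were higher, Tuba1c most (2.55), and 1, Tubb6, was lower.

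Of 37 centromere and kinetochore genes 34 were higher and none lower (median 1.38). Cenpa, the histone variant that marks centromeres, rose from 61.9, 49.1, 67.6 and 57.6 to 653, 686, 537 and 610 CPM (3.39 ± 0.16), while Zwint (0.01) and Cenpb (−0.12) did not pass. All but 1 of 30 condensins, cohesins and chromatin genes were higher, led by the proliferation marker Mki67 (2.83), H2afx (2.28 ± 0.12) and topoisomerase Top2a (2.19). The cohesin release factor Wapl was higher by only 0.20, and Pds5a, its partner, did not pass (0.07).

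The machinery that ends mitosis was split between regulators and core subunits. Of 24 APC/C genes 21 were higher and none lower, but the median was 0.49. The activator Cdc20 rose from 54.3, 47.8, 65.7 and 56.2 to 572, 629, 487 and 532 CPM (3.30 ± 0.17), and separase (Espl1), which cuts cohesin, was higher by 2.37. Core subunits moved little: Anapc5 rose by 0.38 ± 0.03, while Anapc11 (0.05) and Cdc26 (−0.01) did not pass. Securin (Pttg1), the inhibitor of separase, rose by 0.38 ± 0.04 only, from 64.0, 61.9, 65.0 and 71.1 to 84.3, 78.6, 81.2 and 92.0 CPM. The nuclear envelope and pore list had 21 of 28 higher and 1 lower (median 0.34). The lower gene was lamin A (Lmna, −1.77), while lamin B1 (Lmnb1) was higher by 0.86 ± 0.10.

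Among transcriptional regulators of the late cell cycle, Foxm1 stood out, rising from 4.97, 4.88, 7.27 and 4.11 to 33.0, 41.2, 28.4 and 37.0 CPM (2.70 ± 0.23). Of the 24 genes of that list 10 were higher and 5 lower, with a median of 0.07. Its lower members included E2f1, an activator of S-phase genes (−2.06), and Mybl2 (B-Myb), which fell by 0.34 from 31.0, 35.2, 46.6 and 34.9 to 27.2, 24.0, 35.9 and 27.6 CPM. NF-Y subunit Nfyb was higher by 0.67 ± 0.05. The Mybl2 difference turned to 2.75 when phases were called again from the gene lists on thinned cells.

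On all UMIs, genes of DNA replication were mostly lower in G2M than in G1 cells by the authors' calls. Of 48 origin licensing and replication fork genes 29 were lower and 10 higher (median −0.27). With the same calls and every cell thinned to 2000 UMIs, 17 were lower and 14 higher (median −0.035), so the difference was smaller on thinned cells. Thinning evens the weight of cells in the sums as well as their depth, and the cause of this shift was not tested. Ung, which removes uracil from DNA, had the largest drop, from a mean of 209 to 11.0 CPM (−4.20). Cdc6 and Cdt1, which load the helicase, were at −1.61 and −1.16, and Mcm6, a part of that helicase, went from 528, 563, 651 and 618 to 261, 291, 332 and 324 CPM (−0.95 ± 0.03, adjusted p = 1.50e-23, edgeR). Among the 10 that were higher, Dbf4, the activator of the Cdc7 kinase, rose most (1.77). This list turned when phases were called again from gene lists on thinned cells: 46 of its genes were then higher and 1 lower, with a median of 0.96 and Mcm6 at 0.20. These calls used lists that hold replication genes and moved cells between all 3 phases, and the cause of the turn was not tested.

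Replication-dependent histones, whose RNA is needed in S phase, were higher in G2M cells for 31 of 32 members tested (median 1.45). Hist1h2ap rose from 312, 257, 541 and 542 to 1475, 1271, 1470 and 2052 CPM (1.98 ± 0.20). The exception, Hist1h2bc, fell by 1.32 in these 4 mice. Histone genes are near-identical copies and most of their RNAs lack a poly(A) tail, so how reads were split between copies and captured by a 3' method is uncertain. Of 19 G1 cyclins and Cdk inhibitors 7 were higher and 8 lower. The G1 cyclins Ccne2 (−2.26), Ccne1 (−2.08) and Ccnd1 (−1.72) were lower, while Cdkn3 (3.94), a phosphatase of Cdk proteins, and the inhibitor Cdkn2c (1.36) were higher.

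**Figure D3:**
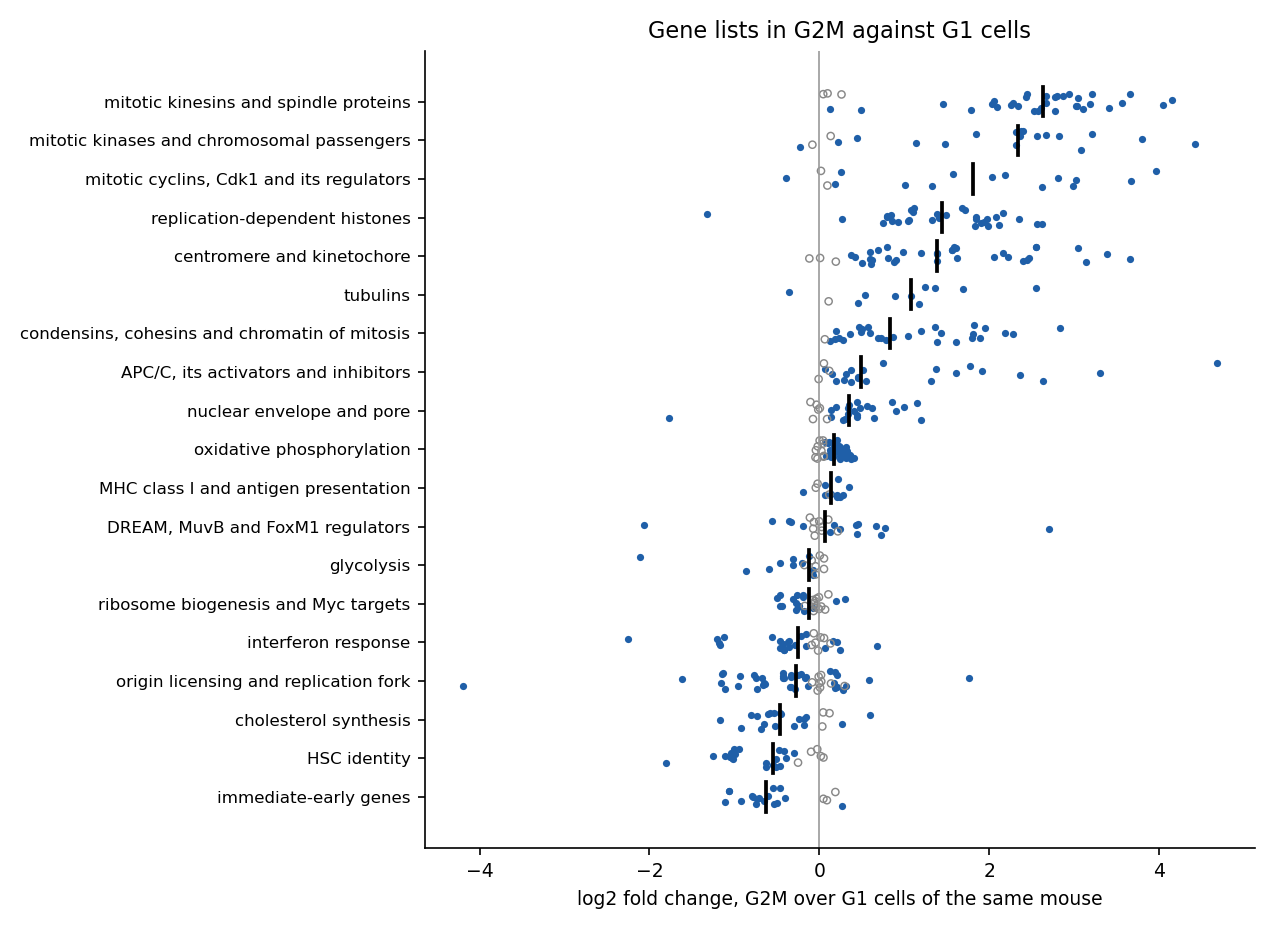
Change from G1 to G2M cells on the log2 scale for the genes of 19 lists. Each point is a gene, filled where the edgeR test passed and open where it did not, and the black bar is the median of the list: 2.64 for spindle genes, 2.34 for mitotic kinases, −0.27 for replication genes, −0.54 for HSC identity genes and −0.62 for immediate-early genes, beside −0.000912 over all genes.

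Genes in none of the lists included further parts of the same machinery. The 12 largest increases with a mean of at least 20 CPM were Fam83d, Aspm, Gpsm2, Sapcd2, Troap, Mxd3, Lockd, Ankle1, Knstrn, Neil3, Shcbp1 and Melk, at 1.99 to 4.69 on the log2 scale. Fam83d, a spindle protein, went from 1.17, 1.51, 1.55 and 1.76 to 36.2, 47.0, 27.5 and 46.9 CPM (4.69 ± 0.12). Aspm, which focuses spindle poles, and Gpsm2, which orients the spindle, were higher by 4.23 ± 0.10 and 3.45 ± 0.09. Lockd, a long noncoding RNA beside the Cdk inhibitor gene Cdkn1b, rose from 96.3, 78.5, 110 and 93.0 to 509, 515, 438 and 514 CPM (2.40 ± 0.15). The 12 largest decreases ran from −2.004 to −1.04. The neurofilament gene Nefh fell by 2.004, from 43.1, 45.0, 41.9 and 39.0 to 9.34, 10.4, 10.8 and 10.9 CPM (adjusted p = 1.04e-19, edgeR), and the chemokine genes Ccl3 and Ccl4 fell by 1.16 and 1.09.

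Outside the cell cycle, genes of stem cell identity and of rapid signal responses were lower in G2M cells. Of 25 HSC identity genes 20 were lower and none higher (median −0.54). Meis1, a transcription factor of stem cells, went from 207, 227, 110 and 145 to 128, 161, 83.4 and 95.3 CPM (−0.54 ± 0.04, adjusted p = 1.13e-11, edgeR). Tcf15 (−1.80), the Cdk inhibitor Cdkn1c (−1.25) and Ly6a, the gene of Sca-1 (−1.11), were lower too, while Gata2 (−0.02) and Hoxa9 (0.05) did not pass. In a fit within cell clusters, which took each cluster of a mouse as its own unit, the median was −0.33. There 17 of the 20 genes tested of this list were lower. Of 20 immediate-early genes 16 were lower and 1, Ier5, higher (median −0.62). Junb went from a mean of 291 to 152 CPM (−0.92), Ier2 from 307, 397, 351 and 452 to 184, 222, 229 and 262 CPM (−0.73 ± 0.03), and Egr1 was at −1.06. With phases called again on thinned cells, 23 HSC identity genes and 18 immediate-early genes were lower and none of either list higher.

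Metabolic lists moved less. Of 47 oxidative phosphorylation genes 37 were higher and none lower, but the median was 0.17 and only 6 passed in a fit without the mouse as a block. Ndufa4 of the respiratory chain went from 1839, 1902, 2081 and 2023 to 2257, 2278, 2341 and 2437 CPM (0.26 ± 0.02). Of 17 glycolysis genes 10 were lower and none higher (median −0.12), among them Aldoc (−2.11), Aldoa (−0.86 ± 0.10) and lactate dehydrogenase Ldha (−0.31 ± 0.03). Of 22 cholesterol synthesis genes 17 were lower and 2, Ebp and Mvk, higher (median −0.46), with Cyp51 at −0.92. Of 30 ribosome biogenesis and Myc target genes 15 were lower and 2 higher (median −0.12), with Myc at −0.50 ± 0.04. With phases called again on thinned cells the ribosome biogenesis list turned to 25 higher and 1 lower (median 0.35), and glycolysis to 8 higher and 6 lower, with Ldha at 0.32.

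Immune and lineage lists were mixed. Of 30 interferon response genes 18 were lower and 5 higher (median −0.25), and within clusters 9 of 24 were lower and 4 higher (median −0.07). Of 13 genes of MHC class I presentation 9 were higher and 1 lower (median 0.13). Granulocyte-monocyte genes (5 higher and 3 lower of 20), lymphoid-primed genes (9 and 5 of 17) and megakaryocyte-erythroid genes (7 and 6 of 20) had medians of 0.09, 0.11 and −0.01. Within clusters the lymphoid-primed list had 2 higher and 6 lower of 15 tested, and the megakaryocyte-erythroid list 2 higher and 6 lower of 13. Dntt, the lymphoid DNA polymerase gene, was at 262, 387, 492 and 376 CPM in G1 and 403, 646, 575 and 503 CPM in G2M cells (0.51 ± 0.11, adjusted p = 0.0338, edgeR). That call was lost within cell clusters (0.10, adjusted p = 0.334, edgeR), with phases called again (0.14, adjusted p = 0.501, edgeR), on thinned cells (adjusted p = 0.0613, edgeR), without the mouse as a block (adjusted p = 0.0824, edgeR), without the 5% of cells with the most UMIs (adjusted p = 0.0549, edgeR) and without PyMT mouse 2 (0.0929), WT mouse 1 (0.126) or WT mouse 2 (0.0580). Of 33 tested markers of 7 other cell types, 7 were higher and 7 lower (42.4%, beside 54.0% of all genes). These were S100a8 and Ifitm6 of 3 neutrophil genes, Cd79b of 4 B cell genes, Klrd1 of 3 T and NK cell genes, Cx3cr1, Ccr2 and Lyz2 of 8 monocyte, macrophage and dendritic genes, Tfrc and Hbb-bt of 4 erythroblast genes, Fcer1a and Ms4a2 of 5 mast and basophil genes, and Pdgfrb, Col1a2 and Emcn of 6 stromal and endothelial genes. Of these, Klrd1, Cx3cr1, Ccr2, Tfrc, Fcer1a, Ms4a2 and Pdgfrb were the higher ones. With phases called again on thinned cells Ifitm6 was at 0.0964 and Pdgfrb at −0.0558, both with the opposite sign. Summed over the list, mature neutrophil markers made 5.85 to 34.5 CPM in G1 and 3.35 to 25.3 CPM in G2M cells. The part these cells had in the changes was not tested.

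Promoters of genes high in G2M cells held the TTTGAA element far more often than promoters at large. A single RefSeq promoter was matched for 6910 of 10781 genes tested. TTTGAA, on either strand of the 300 base window shown above for the 4 markers, occurred in 12.03% of these 6910, in 107 of 200 (53.5%) of genes higher by at least 2-fold and in 57 of 87 (65.5%) of those higher by at least 4-fold. Among genes lower by at least 2-fold it occurred in 8.76%. The share was 49.1% among the genes higher by at least 2-fold that lie outside the G2M score list of 54 genes. All these genes were chosen by phases called from RNA, so an excess of a cell cycle element can follow from the calls. Which genes the authors' caller used is not given here, so leaving out this list does not remove that dependence. CCAAT on either strand occurred in 40.1% of all promoters, 71.0% of those of genes higher by at least 2-fold, and 29.5% of those of genes lower by at least 2-fold. Without histone genes the shares among higher genes were 53.5% for TTTGAA and 66.0% for CCAAT. Both motifs together occurred in 5.11% of all promoters and 44.0% of those of higher genes.

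Among genes high in G2M cells the TTTGAA matches often lay close to the transcription start. A match within 50 bases of it was found in 2.98% of all promoters, 35.5% of those of genes higher by at least 2-fold, 51.7% of those higher by at least 4-fold and 0.461% of those lower by at least 2-fold. The E2F-like motif GGCGGGAA, on either strand, was found in 4.78% of all promoters, 3.50% of those of higher genes and 5.99% of those of lower genes. These matches describe letters in a window, not sites shown to be bound.

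**Figure D4:**
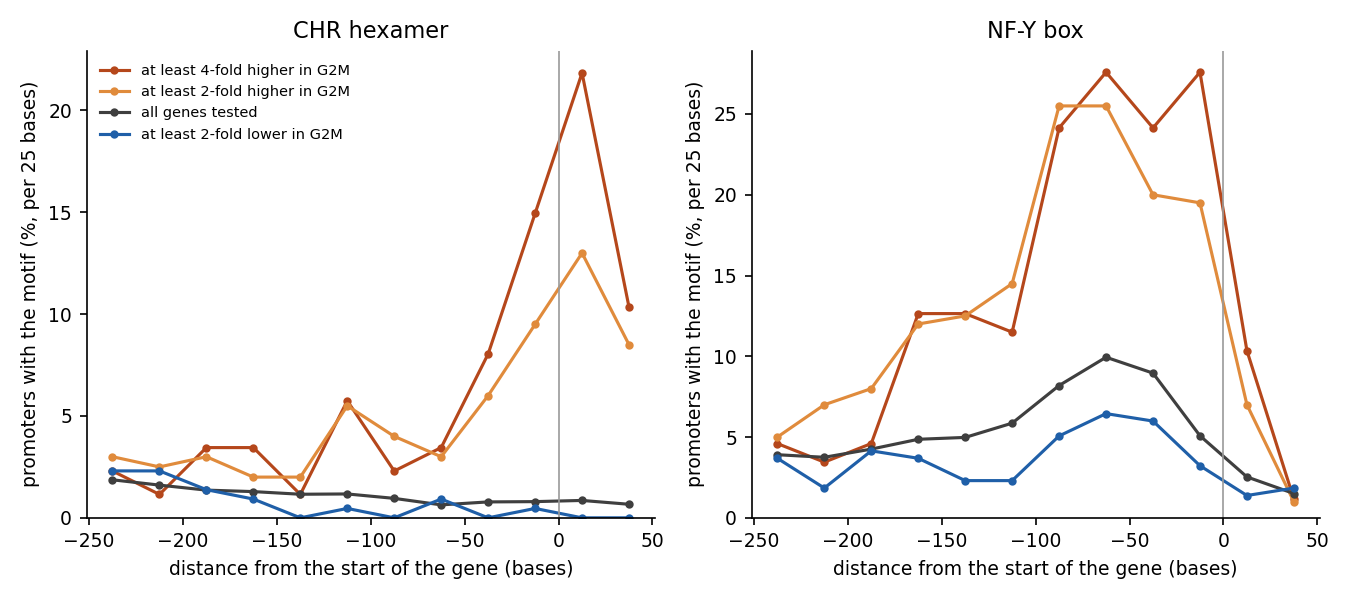
Share of RefSeq promoters with a motif start in each 25 base bin, in percent, against distance in bases from the transcription start, for TTTGAA (left, the cell cycle genes homology region or CHR) and CCAAT (right, the NF-Y box); lines are genes higher by at least 4-fold or 2-fold, lower by at least 2-fold, and all genes tested. The TTTGAA line of higher genes peaks at the start, where 35.5% of promoters of genes higher by at least 2-fold hold it within 50 bases, against 2.98% of all.

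The mitotic programme itself was present in both genotypes, and the question of whether it differed was put to the phase by genotype term. Of 10781 genes 19 passed (0.176%; edgeR), 7 with a change more positive in PyMT mice (0.0649%) and 12 with one more negative (0.111%). DESeq2 called 0 genes and the edgeR fit within cell clusters called 0, with 83 and 535 genes at an unadjusted p under 0.05 beside 817 by the edgeR test over all cells.

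Of the 54 genes of the G2M score list 6 passed, all with a smaller rise in the PyMT mice, and 48 did not. The estimated difference was below 0 for all 54, with a median of −0.35 on the log2 scale beside −0.02 over all genes, of which 54.9% had a difference below 0. In 45 of the 54 both PyMT mice lay below both WT mice, against 19.6% of all genes tested. The RNA summed over the list rose by 2.11 and 2.23 in the WT mice, 1.71 in PyMT mouse 1 and 2.01 in PyMT mouse 2 on the log2 scale. PyMT mouse 1 was thus the lower one. The 6 that passed were the Cdk1 partner Cks1b, Tubb4b, Hmmr, Kif2c, Tacc3 and Tpx2.

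The number of calls depended on the mice, while the median of the list stayed below 0 without any 1 of them. Without PyMT mouse 1 the median of the list was −0.19 and 0 of its genes were called; without PyMT mouse 2 it was −0.49 with 30 called, without WT mouse 1 −0.41 with 23 called, and without WT mouse 2 −0.31 with 8 called. Within cell clusters the median was −0.31 and all 54 stayed below 0, on thinned cells −0.31 with 52 below 0, and with phases called again on thinned cells −0.26 with 49 below 0. Without PyMT mouse 1 the whole table gave 1 gene in each direction, without PyMT mouse 2 it gave 17 and 118, without WT mouse 1 22 and 65, and without WT mouse 2 10 and 23.

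Each phase was also compared between genotypes by itself. In G1 cells 0 of 54 passed (edgeR), beside 1.71% of all genes tested, with a median of 0.22 and 46 of 54 genes above 0. This lean was not particular to the list. In G1 cells 45 of 48 replication, 46 of 47 oxidative phosphorylation and 30 of 30 ribosome biogenesis genes lay above 0. Other lists went the other way, with 0 of 22 megakaryocyte-erythroid and 3 of 25 HSC identity genes above 0. The median of the G2M score list in G1 cells was 0.09 without PyMT mouse 1. With phases called again on thinned cells it was also 0.09, and DESeq2 called 6 genes of the list higher. In G2M cells 1 of 54 passed, beside 2.12% of all genes tested, with a median of −0.15 and 43 of 54 genes below 0. Of the G1 cells of the PyMT mice 4.25% and 5.67% had a G2M score above 0.2 (the authors' score, from 0 to 1), against 2.34% and 3.00% in WT mice. The highest of these shares was from PyMT mouse 2, the shallower library, and the part of depth in it was not tested. With G2M cells of a score of at least 0.75 and G1 cells of one under 0.05 alone, a comparison added after seeing the data, the median of the list was −0.32 and 53 of 54 genes lay below 0. Genes higher in G2M cells by at least 2-fold had a median difference of −0.32, with 93.9% of 264 below 0. Genes lower by at least 2-fold had a median of 0.12, with 61.8% of 372 above 0. In both sets the distance between cells called G1 and G2M was on average smaller in the PyMT mice. The sets were chosen by their change between the called phases, so this describes the calls in each mouse. Counts of genes over the same 4 mice are not independent support.

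**Figure D5:**
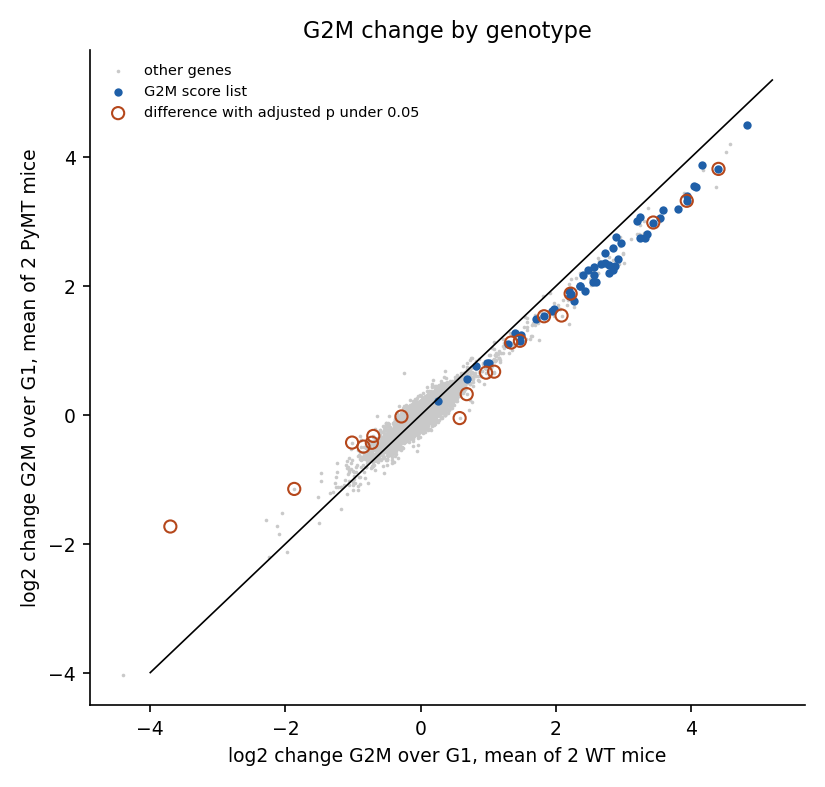
Change from G1 to G2M cells on the log2 scale, as the mean of the 2 WT mice (horizontal axis) and of the 2 PyMT mice (vertical axis). Each point is a gene, grey points are genes with a mean of at least 20 CPM over the G1 and G2M sums, genes of the G2M score list are blue, rings mark the 19 genes with a difference at an adjusted p under 0.05, and the line marks equal change; the blue points lie on or below the line.

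Kif2c, a kinesin that takes microtubules apart, had the largest difference among the called members of that list. It rose by 3.90 and 3.97 in the WT mice and by 3.13 and 3.52 in the PyMT mice, from 7.65, 7.89, 12.7 and 11.6 CPM in G1 to 121, 131, 114 and 138 CPM in G2M cells. The difference was −0.64 ± 0.14 (adjusted p = 0.0222, edgeR) and came with higher G1 values in both PyMT mice. With phases called again on thinned cells it turned to 0.38. Hmmr rose by 4.52 and 4.29 against 3.70 and 3.94 (−0.62 ± 0.12, adjusted p = 0.00361, edgeR), and Cks1b by 1.45 and 1.49 against 1.05 and 1.25 (−0.33 ± 0.06, adjusted p = 0.00154, edgeR). In both genes the 2 groups of mice did not overlap. Ube2c, Plk1, Ccnb1 and Cenpf did not pass; Ube2c, for example, had a difference of −0.33 ± 0.10 (adjusted p = 0.242, edgeR).

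The other 13 genes with a different change lay outside the G2M score list. Meg3, a noncoding RNA of stem cells, stood at 26.6, 13.6, 35.2 and 27.6 CPM in G1 and at 1.95, 0.418, 9.30 and 8.76 CPM in G2M cells, a difference of 2.19 ± 0.33 (adjusted p = 0.000191, edgeR). It fell in every mouse, and less in the PyMT mice. Cyclin D2 (Ccnd2), a driver of G1, fell from 384 and 446 to 218 and 243 CPM in WT mice and from 338 and 353 to 245 and 246 CPM in PyMT mice (0.34 ± 0.06, adjusted p = 0.00108, edgeR). The cytokine gene Ltb (0.69 ± 0.11) and the globin gene Hbb-bt (0.63 ± 0.12) also fell less in PyMT mice. Dntt rose by 0.62 and 0.74 in WT mice and by 0.23 and 0.42 in PyMT mice (−0.37 ± 0.06, adjusted p = 0.00108, edgeR), but within cell clusters its difference was 0.24 with the opposite sign. Hist1h2ae (−0.56 ± 0.09), the linker histone H1f0 (−0.32 ± 0.06) and Cenpw (−0.42 ± 0.07) rose less in PyMT mice.

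G2M cells of PyMT and WT mice were then compared directly. Of 10441 genes 221 passed (2.12%; edgeR), 132 higher (1.26%) and 89 lower (0.852%) in PyMT mice. In G1 cells 196 of 11477 passed (1.71%), 123 higher (1.07%) and 73 lower (0.636%). The number of calls depended on the mice. In G2M cells it was 10 higher and 7 lower without PyMT mouse 1, 106 and 59 without PyMT mouse 2, and 424 and 249 without WT mouse 1. In G1 cells it was 217 and 90 without PyMT mouse 1, 741 and 411 without PyMT mouse 2, 65 and 27 without WT mouse 1, and 13 and 11 without WT mouse 2.

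Socs3, Cebpb, Bcl3, Junb, Pim1 and Ly6a were among the higher genes. Socs3, the feedback inhibitor of cytokine receptors, was at 4.74 and 5.02 CPM in G2M cells of WT mice and 32.8 and 30.4 CPM in those of PyMT mice (2.71 ± 0.18, adjusted p = 3.79e-05, edgeR). In G1 cells it was at 12.97 and 8.87 against 74.6 and 61.4 CPM. Cebpb, a transcription factor of emergency myelopoiesis, was at 48.8 and 44.3 against 157 and 119 CPM (1.57 ± 0.14, adjusted p = 0.000659, edgeR). Bcl3 (1.66 ± 0.19), Junb (1.04 ± 0.13), the kinase gene Pim1 (0.73 ± 0.10) and Ly6a (1.26 ± 0.17) were higher as well. These 6 genes were chosen among those called in this comparison, so both PyMT mice lying above both WT mice adds no support. All 6 had the same direction in all 5 cell clusters tested, whose cells are part of the same sums. Other called genes, such as Cdk5rap1 and Hjurp, kept their direction in all 5 as well. The cluster led by Jchain, Ifit1 and Socs3, which was not among these 5, held 0.605% and 0.460% of the G2M cells of the WT mice and 5.55% and 15.4% of those of the PyMT mice. Of 18 heat shock and chaperone genes, many of which respond to stress, 2 were higher, Dnaja1 (0.66 ± 0.12) and Dnajb1 (0.57 ± 0.12), and 17 of 18 lay above 0 (median 0.25). This lean was not particular to chaperones. In G2M cells 30 of 30 ribosome biogenesis genes (median 0.25) and 15 of 17 glycolysis genes (median 0.36) lay above 0. Of 19 megakaryocyte-erythroid genes 1 did. Hspa1a was at 0.279 and 0 CPM in WT mice, 36.0 CPM in PyMT mouse 1 and 2.73 CPM in PyMT mouse 2, and did not pass (adjusted p = 0.432, edgeR). The part of a stress response in these differences was not tested.

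The lower genes were led by Cdk5rap1, a modifier of mitochondrial transfer RNA, at 45.3 and 43.3 CPM in WT and 12.6 and 8.61 CPM in PyMT mice (−2.06 ± 0.18, adjusted p = 0.000246, edgeR). Platelet lineage genes followed: the integrin Itga2b was at 161 and 147 against 79.1 and 88.4 CPM (−0.87 ± 0.11, adjusted p = 0.00583, edgeR), with Gp9 (−0.96 ± 0.14), Gp5 (−1.10 ± 0.16) and Tuba8 (−1.20 ± 0.14) below it. Of 19 megakaryocyte-erythroid genes tested 10 were lower and none higher (median −0.85), and in G1 cells 9 of 22 were (median −0.80). The Pf4 cluster held 22.8% and 19.1% of the G2M cells of the WT mice and 14.5% and 14.1% of those of the PyMT mice, so cells of that lineage were a smaller share there. Fewer such cells and less RNA per cell cannot be told apart in these sums. Within single clusters Itga2b was lower in 3 of 4 tested, Gp9 in 2 of 3, Tuba8 in 3 of 3 and Gp5 in 1 of 1. Of 24 HSC identity genes 2 were higher and 4 lower (median −0.52), among the lower ones Angpt1 at 111 and 128 against 57.0 and 67.2 CPM.

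Within G2M cells the G2M score list was called by genotype at about the rate of all genes, 1 of 54 beside 2.12% of 10441. Hjurp, the chaperone that loads Cenpa, was the only one of the 54 G2M score genes called, at 242 and 252 CPM in WT and 176 and 181 CPM in PyMT mice (−0.46 ± 0.09, adjusted p = 0.0322, edgeR). The kinesin Kif2a (−0.50 ± 0.12) and the linker histone H1fx (−0.70 ± 0.12) were lower too. Of 48 replication genes 3 were higher and none lower (median 0.13). The higher genes with a role in DNA synthesis included Rrm2, a subunit of ribonucleotide reductase, at 143 and 118 against 195 and 203 CPM (0.61 ± 0.11, adjusted p = 0.0206, edgeR), the flap nuclease Fen1 (0.52 ± 0.10), Hells (0.54 ± 0.11) and Pold2 (0.45 ± 0.10). The Ran regulator Ranbp1 was higher by 0.61 ± 0.11. Single members of metabolic lists were higher, Cycs by 0.70 ± 0.11, Atp5o by 0.60 ± 0.10, Srm by 0.71 ± 0.11 and Eno1 by 0.56 ± 0.10, while the class I genes H2-Q7 (−0.74 ± 0.12) and H2-T23 (−0.64 ± 0.10) were lower.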

How the data were processed

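UMIs of single HSPC were measured with a droplet 3' method in 4 mice. The table the authors deposited holds raw UMI counts, and their sums match the total listed for each of the 14842 cells. A second deposited table lists for each cell its phase, its G1, S and G2M scores as fractions, and the percent of UMIs from mitochondrial genes. These 3 scores sum to 1 in every cell. The phase caller and the filters on cells and genes are given in none of the sources used here, nor is any removal of doublets. No doublet caller was run, and an alternative left out the 5% of cells with the most UMIs per mouse and phase. Cell Ranger 6.0.0 and the build mm10 are named in the submitters' processing notes. Groups follow the genotype labels, and each library is a separate mouse per the authors' metadata.

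Counts were summed per mouse and phase and tested with edgeR 4.0.16 (R 4.3.3; quasi-likelihood test with robust dispersions, TMM factors, genes kept by filterByExpr; adjusted p under 0.05 by Benjamini-Hochberg). CPM are TMM-normalised, and changes per mouse use a pseudocount of 0.5 CPM. The SE of a log2 difference is its size divided by the square root of the edgeR F statistic, not a spread over mice. Mouse was a block in the phase comparison because both phases come from the same animal. In the fits within cell clusters each cluster of each mouse was a block. Clusters of 1 mouse thus entered as separate units, and the calls and p-values of these fits do not rest on independent mice. The WT and PyMT replicate numbers pair no mice. Alternatives used DESeq2 1.42.0, cyclone (scran 1.30.0) and clusters (scanpy 1.11.5, leidenalg 0.10.2, resolution 0.6) made without cell cycle genes. On simulated counts the phase test recovered 95.7% of 2-fold changes (10781 genes, 9.36% of calls false), the phase by genotype test 73.9% (10781 genes, 11.1% false) and the test within G2M cells 80.0% (10441 genes, 12.8% false). In these simulations the share of false calls thus exceeded the threshold. Each test was simulated once, with few genes changed. Between the phases 54.0% of genes were called, so the simulated rates may not hold for that comparison.

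The members, gene lists and tests were chosen with earlier results of these data known. Named genes are the 4 markers, 8 regulators, up to 4 members per list with the highest CPM, the 12 largest unlisted changes in each direction with at least 20 CPM, and the genes with the smallest p for the genotype tests. The largest and smallest changes named within lists were chosen after their values were seen.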

Additional observations from a re-analysis of the deposited data

Results flagged for a closer look

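In 4 of 31 gene lists checked, 1 mouse stood far from the other 3 in the log2 change of the summed CPM from G1 to G2M cells. Chance gives such a gap in about 1 group of 20. PyMT mouse 1 was the lowest for the S score list (−0.583, the others −0.449 to −0.433), for nuclear envelope and pore genes (0.220, the others 0.360 to 0.361) and for oxidative phosphorylation (0.0951, the others 0.174 to 0.184). WT mouse 2 was the lowest for glycolysis (−0.290, the others −0.206 to −0.193). None of the 36 single genes checked had such a mouse.

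The change from G1 to G2M cells differed between PyMT and WT mice by the phase by genotype test (edgeR, adjusted p under 0.05) in 19 genes. The difference on the log2 scale was positive for Meg3 (2.19), Ltb (0.69), Hbb-bt (0.63), Tyrobp (0.35), Ccnd2 (0.34), Shisa5 (0.28) and Rsrp1 (0.25). It was negative for Klf2 (−0.68), Kif2c (−0.64), Hmmr (−0.62), Hist1h2ae (−0.56), Tpx2 (−0.45), Cenpw (−0.42), Dntt (−0.37), Tacc3 (−0.34), Cks1b (−0.33), H1f0 (−0.32), Tubb4b (−0.30) and Tubb5 (−0.22).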

How the results depend on the processing

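Counts of called genes moved with the processing in all comparisons. Without the replicate block, 1113 genes were higher and 1153 lower in G2M cells. DESeq2 gave 1944 and 1760, cells thinned to 2000 UMIs 1796 and 1720, and a test against a 1.5-fold change 322 and 351. Leaving out a mouse gave 2451 to 2900 higher and 2431 to 2831 lower.

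For the phase by genotype term, DESeq2 and the fit within clusters gave 0 genes in either direction. No filter on low counts gave 11 positive and 24 negative, thinned cells 3 positive, cells far from the phase boundary 7 negative, and phases called again from lists on thinned cells 4 and 3. Leaving out a mouse gave 1 to 22 positive and 1 to 118 negative. The cause was not tested.

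In G2M cells, DESeq2 gave 213 genes higher in PyMT mice, no filter 201, thinned cells 53 higher and 18 lower, and leaving out a mouse 10 to 424 higher and 7 to 249 lower. In G1 cells, DESeq2 gave 338 and 115, cells far from the boundary 191 and 117, thinned cells 231 and 126, phases from lists on thinned cells 73 and 29, the data without the 5% of cells with the most UMIs 74 and 41, and leaving out a mouse 13 to 741 and 11 to 411.

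The G2M share difference was −0.471 points by lists on all UMIs, 0.139 by lists on thinned cells and −1.40 by cyclone on all UMIs. In the clusters numbered 0, 1, 3, 4 and 5 it was −7.89, −1.04, 22.7, −2.30 and −0.467 points. The S difference was 6.22 and 5.60 points by lists on all and on thinned UMIs, −0.201 by cyclone on thinned cells, and −2.37, −0.768 and −0.974 in clusters 1, 3 and 5. The G1 difference was −5.74 by lists on all UMIs and −5.74 on thinned cells, 2.14 by cyclone on thinned cells, and 7.31, 3.40 and −22.0 in clusters 0, 1 and 3. Leaving out a mouse gave G2M differences of −2.10 to −1.48 points.

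Signs turned for single genes. With phases from lists on thinned cells the G2M minus G1 change became positive for Mybl2 (2.75), Dut (0.99), Mcm3 (0.50), Ncl (0.47), Rfc2 (0.35), Ldha (0.32), Fdps (0.22), Mcm6 (0.20), Pkm (0.13), Ifitm6 (0.10) and Bax (0.0470), and negative for B2m (−0.10), Pdgfrb (−0.0558), H2-D1 (−0.0392) and H2-K1 (−0.0132). On thinned cells it was 0.0410 for Mybl2 and 0.0434 for Dut. Within clusters it was −0.0204 for Cdk4, −0.0435 for Psmb8 and −0.0455 for Hspa8. The genotype difference of that change turned to 0.24 for Dntt within clusters and to 0.38 for Kif2c with phases from lists. The share of promoters with TTTGAA was 65.5% among genes higher by at least 4-fold.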
